A study of Gallus gallus with 4 samples.

Results

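A set of 96 abundant genes was higher in granulosa cells of prehierarchical follicles than in those of preovulatory follicles of the chicken, with either of 2 plasmids and by a moderate margin. The members were chosen by their measured levels, from 13819 genes listed in any of the 4 tables. A member averaged at least 30 FPKM across the libraries, as 3405 genes did. Its preovulatory level was also at least 2-fold below its prehierarchical level with the control plasmid and again with the FOXL2 plasmid. FPKM divides a gene's sequenced fragments by its transcript length and by the size of the library, and phase and plasmid ratios are given as the log2 ratio of (FPKM + 1). A phase ratio is preovulatory over prehierarchical, so -1 stands for a 2-fold lower preovulatory level. The 31 genes at or below -2 with both plasmids were left out of the set, which is what makes its difference moderate.

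Granulosa cells line the follicle around the oocyte and its yolk. In the laying hen a small yellow follicle is selected into a ranked hierarchy, whose follicles grow fast and ovulate in turn. Granulosa cells before selection are known for their undifferentiated state and little progesterone synthesis, and those of the hierarchy for strong steroid production under gonadotropins. FOXL2 is a forkhead transcription factor that granulosa cells express and that is known from mammals to maintain the ovarian state of these cells.

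All 4 groups were primary cells of 26-week-old chickens. The prehierarchical cells came from small yellow follicles (SYF) and the preovulatory cells from F2-F4 follicles. Each kind received pcDNA3.1-FOXL2, which carries FOXL2, or pcDNA3.1 without it. Lipofectamine was the carrier, 18 h of culture came before transfection and 48 h passed before collection. All cells were thus plated, held at 39°C in M199 with 5% fetal bovine serum, and transfected, the controls too, and no uncultured follicle cells were measured. With a single library (n = 1) in each group, replicate error is unknown throughout and no difference was tested. The sources used here do not give the strain, the number of hens or whether hens were pooled. In bulk RNA, fewer cells that express a gene and less RNA per cell cannot be told apart.

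The tables listed 12600 to 12724 genes per library, with a lowest value of 0.01 FPKM. The files pair gene identifiers only with transcript identifiers, and 0 of 13819 matched the reference gene table used here. Members are therefore given by Ensembl identifier, with no symbol, function or sequence, and neither FOXL2 itself nor markers that would check the labelled cell types were analysed here. Total depth is unknown. Low values nevertheless fall on steps: in 315 genes with 1 transcript and near-equal values in 2 or 3 tables, the step had a median of 0.23 FPKM (quartiles 0.14 and 0.38). If 1 step is 1 fragment, the lowest member value, 12.5 FPKM, stands for about 54.3 fragments in a gene with that step, a counting error of about 13.6%.

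The members were readily measured in every library, and all 96 were listed in all 4 tables. In the prehierarchical control library they ran from 41.8 to 6796 FPKM with a median of 108.7, and with FOXL2 from 42.1 to 7719 FPKM with a median of 115.6. In the preovulatory control library they ran from 14.6 to 2806 FPKM with a median of 37.4, and with FOXL2 from 12.5 to 3046 FPKM with a median of 34.9. The phases thus overlapped across the set as a whole, but not within a gene: for each of the 96 members both prehierarchical values were above both preovulatory values. The rule on ratios nearly fixes that order. The gap between the nearest pair, as a plain FPKM fold of the lower prehierarchical over the higher preovulatory value, ran from 1.85-fold to 4.06-fold with a median of 2.55-fold, and was at least 2-fold for 93 members. At least 30 FPKM was reached in every library by 54 members, while 31 were under 30 FPKM in both preovulatory libraries and 11 in 1 of them.

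**Figure D1:**
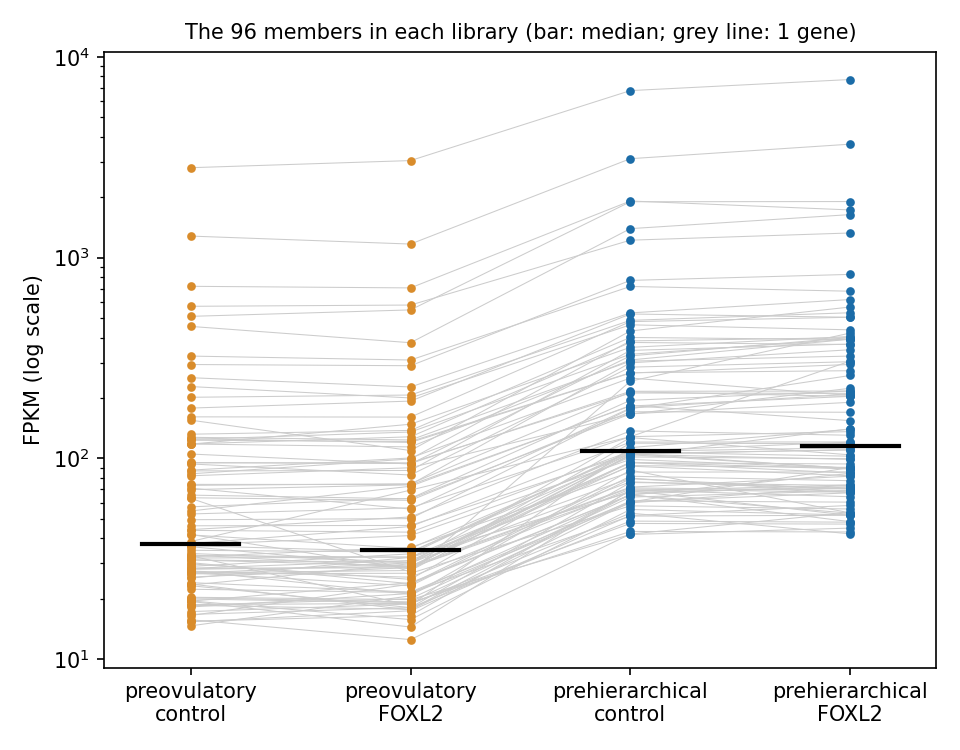
FPKM of the 96 members (log axis) in the 4 libraries, with 1 point per gene, a grey line joining the values of a gene and a black bar at the median. The medians are 37.4 and 34.9 FPKM in the preovulatory libraries and 108.7 and 115.6 FPKM in the prehierarchical ones, and within a phase most lines run nearly flat.

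ENSGALG00000028058 was the most abundant member. It stood at 6796 FPKM in prehierarchical control, 7719 in prehierarchical FOXL2, 2806 in preovulatory control and 3046 in preovulatory FOXL2 cells. It ranked 7, 6, 13 and 11 among all genes of those libraries, so it was among the leading transcripts of both phases. ENSGALG00000014442 followed with 3112 and 3676 FPKM in prehierarchical control and FOXL2 cells, against 1281 and 1169 in the preovulatory ones. ENSGALG00000026383 had 1915 and 1729 FPKM in the same order, against 719.7 and 706.8. These 3 genes had phase ratios between -1.65 and -1.28, and in each of them the phases lay further apart than the plasmids.

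ENSGALG00000004184, the fourth by level, was further apart. It had 1899 FPKM with control and 1903 with FOXL2 in prehierarchical cells, against 509.9 and 549.0 in preovulatory cells, and phase ratios of -1.89 and -1.79. It ranked 19 and 23 in the prehierarchical libraries and 100 and 84 in the preovulatory ones. The file lists 2 transcripts for it, whereas the other 3 have 1 each. The 4 genes together held 42.7% and 43.0% of the members' FPKM in prehierarchical control and FOXL2 cells, and 44.1% and 45.3% in preovulatory ones.

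**Figure D2:**
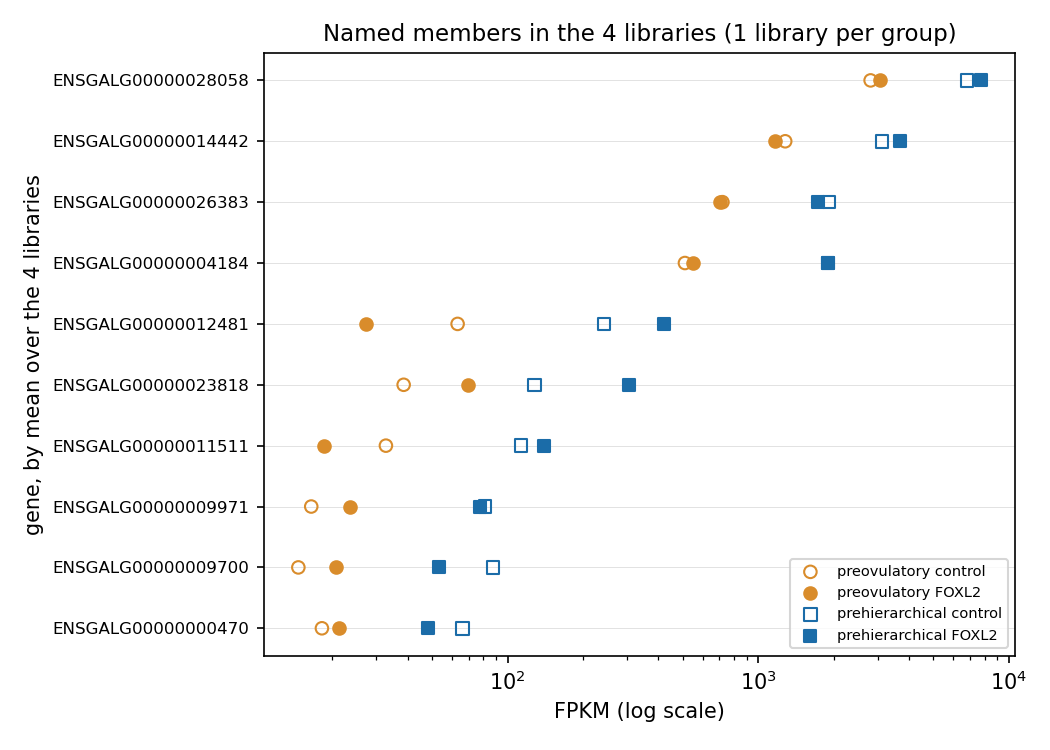
FPKM (log axis) of the 10 members named for their level or their plasmid and phase ratios, ordered by mean over the 4 libraries, with circles for preovulatory and squares for prehierarchical cells, open for control and filled for FOXL2. The 4 at the top have a mean of over 1000 FPKM and plasmid symbols close together, while ENSGALG00000012481 and ENSGALG00000023818 have theirs far apart.

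As a share of all FPKM, the members held 6.02% in prehierarchical control and 6.28% in prehierarchical FOXL2 cells. In preovulatory cells they held 2.23% and 2.28%. The 31 genes left out as more than moderate held less in every library, 1.23% and 1.28% in prehierarchical and 0.12% in each of the preovulatory libraries. Their median mean level was 52.5 FPKM, against 76.2 for the members and 58.2 for all 3405 abundant genes. The members differed from them by remaining substantial in preovulatory cells, where the medians of the 31 genes were 9.37 and 9.61 FPKM. That contrast follows from the rule and is a description.

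The set took a larger share of the more abundant classes. It held 55 of 2557 genes averaging 30 to 100 FPKM (2.15%), 27 of 635 genes of 100 to 300 FPKM (4.25%) and 14 of 213 genes of at least 300 FPKM (6.57%). A lean to higher levels was not particular to the members. The upper quartile of the mean level was 199.4 FPKM in them and 167.0 FPKM in 106 abundant genes that passed -1 with 1 plasmid only. It was 99.6 FPKM in all 3405 abundant genes. The members' phase ratios were close across the level classes, with control medians of -1.49, -1.53 and -1.33 and FOXL2 medians of -1.52, -1.52 and -1.41. The limits of the rule at -1 and -2 hold most of these ratios in a narrow range. That closeness thus largely follows from the choice of members. Single transcripts were listed for 88 of 96 members (91.7%), against 3186 of 3405 abundant genes (93.6%), so the members were close to the other abundant genes in that respect.

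The phase ratios chose the members and are described without a test. With the control plasmid they ran from -2.50 to -1.004 with a median of -1.48, and with FOXL2 from -3.91 to -1.03 with a median of -1.51. The preovulatory level was at least 2-fold lower for 172 of 3405 abundant genes with control (5.05%), for 188 with FOXL2 (5.52%) and for 127 with both (3.73%), of which the 96 members are part. Between -2 and -1 with both plasmids lay 76 members. Another 6 were at or below -2 with control only, and 14 with FOXL2 only. The median phase ratio of the 10639 genes averaging 1 FPKM or more was 0.17 with control and 0.23 with FOXL2, not 0. Relative to it the members' medians were -1.66 and -1.74. For the 3405 abundant genes the median was 0.13 with control and 0.12 with FOXL2. The gap between -1.66 and -1.74 thus depends on which genes are set beside the members.

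**Figure D3:**
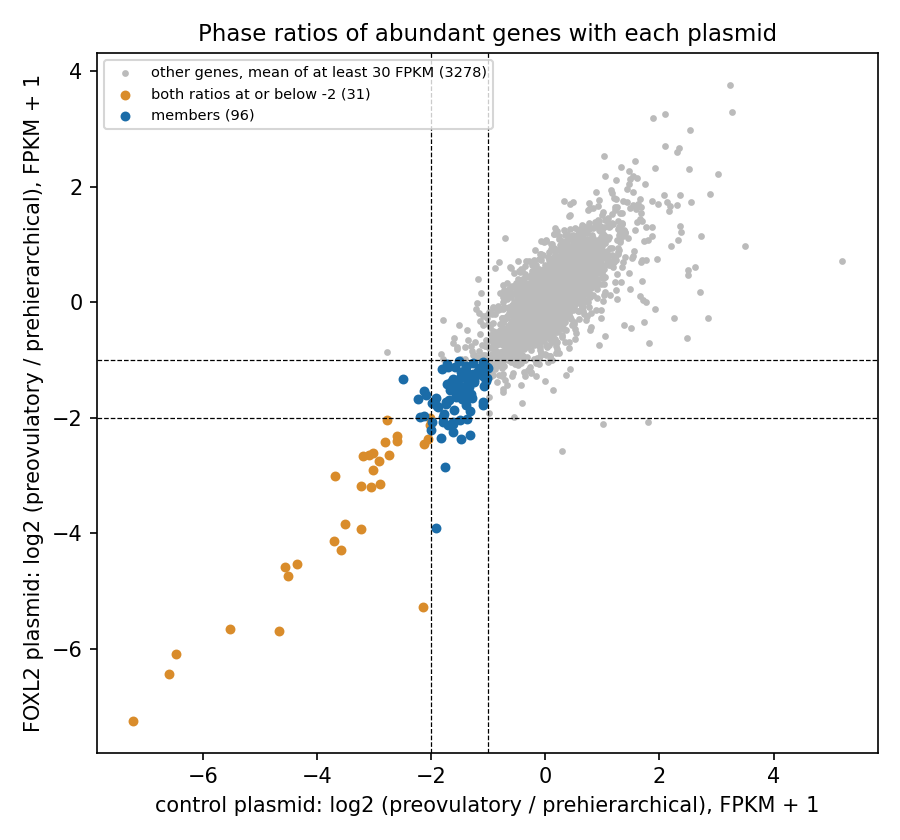
Log2 phase ratio (preovulatory over prehierarchical, FPKM + 1) with the control plasmid on the x axis and with FOXL2 on the y axis for 3405 abundant genes, with dashed lines at -1 and -2. The 96 members (blue) fill the corner past -1 on both axes, the 31 genes past -2 on both (orange) lie beyond it, and 1 member, ENSGALG00000012481, reaches -3.91 on the y axis.

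The borders of the set fell among genes that were close in the ratio or level that decides, though not always in their other values. ENSGALG00000012121, at 41.8 and 44.9 FPKM in prehierarchical control and FOXL2 cells against 20.3 and 19.8 in preovulatory cells, was just inside with ratios of -1.004 and -1.144. ENSGALG00000002362 was the next, with -1.012 and -1.306. ENSGALG00000024103, at -1.003 and -0.993, and ENSGALG00000010175, at -0.994 and -1.644, were just outside. At the other border ENSGALG00000012726 (-1.997 and -2.215) and ENSGALG00000001475 (-2.187 and -1.995) were members, while ENSGALG00000009470 (-2.012 and -2.002) and ENSGALG00000028664 (-2.024 and -2.133) were not. By level, ENSGALG00000006633 with a mean of 31.0 FPKM and ENSGALG00000001446 with 31.3 FPKM were the lowest members, and ENSGALG00000001656 with 29.4 FPKM and ENSGALG00000006009 with 29.2 FPKM met the ratios but missed the level. Another 106 abundant genes passed -1 with 1 plasmid only, 45 with control and 61 with FOXL2, and 68 of them were at or below -0.5 with the other plasmid. The genes named on the 2 sides of a ratio limit were thus closer together in the ratio that decides than the counting error given above for a value of 12.5 FPKM. The counting error of these genes themselves, which had higher values, was not estimated.

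How the FOXL2 library differed from its control within a phase was not used to choose the members, although the same 4 libraries enter both measures. In prehierarchical cells the members' FOXL2 log2 ratios (FOXL2 over control) ran from -0.70 to 1.246 with a median of 0.01, and in preovulatory cells from -1.19 to 0.83 with a median of -0.003. The sign of these medians turned with the scaling, to -0.05 and 0.03 on a TPM scale, on which every library has the same sum. The spread over genes was close to that of all abundant genes, with SDs of 0.25 and 0.26 in the 2 phases against 0.25 and 0.24. The preovulatory minus the prehierarchical FOXL2 ratio equals the FOXL2 minus the control phase ratio, and the rule limits both phase ratios. The 106 abundant genes left out for passing -1 with 1 plasmid only had SDs of 0.47 and 0.49. What the rule does to the members' spread and counts was not tested. Within 1.25-fold of control in both phases were 71 members (74.0%), against 80.0% of abundant genes. In prehierarchical cells 52 ratios were above 0 and 44 below, and in preovulatory cells 47 were above and 49 below. These counts depend on the scaling, as the medians do. The shares of all abundant genes above 0 are not given. Their median FOXL2 ratios were 0.001 in prehierarchical and -0.01 in preovulatory cells.

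Few members reached 1.5-fold between the plasmids, and their shares were close to the background. In prehierarchical cells 2 members were at least 1.5-fold higher with FOXL2 (2.08%, against 1.70% of abundant genes) and 1 was lower (1.04%, against 0.852%). In preovulatory cells 1 was higher (1.04%, against 0.852%) and 2 were lower (2.08%, against 1.64%). At 2-fold there was 1 higher member in prehierarchical cells, beside 0.675% of abundant genes on that side and 0% on the other. In preovulatory cells there was 1 lower member at 2-fold, beside 0.352% of abundant genes lower and 0.0587% higher. Altogether 4 of the 96 members (4.17%) reached 1.5-fold in either phase and direction, against 135 of 3405 abundant genes (3.96%). The header names of the preovulatory control and prehierarchical FOXL2 value columns carry a number that the other names lack. It is 1 in the first and 2 in the second. What the numbers mark, such as a replicate or a batch, is not stated. A batch, if they mark one, and a plasmid difference that depends on phase cannot be told apart.

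ENSGALG00000023818 was the single member that was at least 1.5-fold higher with FOXL2 in both phases. It had 305.4 FPKM with FOXL2 against 128.2 with control in prehierarchical cells, a FOXL2 log2 ratio of 1.246, and 69.5 against 38.5 FPKM in preovulatory cells, a FOXL2 log2 ratio of 0.83. Its prehierarchical control value was above both preovulatory values, but its gap between the nearest pair, 1.85-fold, was the smallest of all members. Its phase ratios were -1.71 with control and -2.12 with FOXL2.

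ENSGALG00000012481 went in opposite directions in the 2 phases. It had 421.1 FPKM with FOXL2 against 242.3 with control in prehierarchical cells, a FOXL2 log2 ratio of 0.79. In preovulatory cells it had 27.1 FPKM with FOXL2 against 63.2 with control, a FOXL2 log2 ratio of -1.19. Its phase ratio of -1.92 with control thus became -3.91 with FOXL2, the widest of any member with either plasmid. It stayed among the members because its control ratio was above -2.

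ENSGALG00000011511 was the other member at least 1.5-fold lower with FOXL2 in preovulatory cells, at 18.5 against 32.7 FPKM, a FOXL2 log2 ratio of -0.79. In prehierarchical cells it had 139.7 FPKM with FOXL2 against 113.1 with control, a FOXL2 log2 ratio of 0.30, and its phase ratios were -1.76 with control and -2.85 with FOXL2. ENSGALG00000009700 was the single member at least 1.5-fold lower with FOXL2 in prehierarchical cells, where 53.5 FPKM stood against 87.4 for control, giving -0.70. In preovulatory cells it had 20.7 FPKM with FOXL2 against 14.6 with control, a FOXL2 log2 ratio of 0.47, so that its phase ratio went from -2.50 with control to -1.33 with FOXL2. The first of these genes widened its phase gap with FOXL2 and the second narrowed it.

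ENSGALG00000000470 and ENSGALG00000009971 completed the extremes without reaching 1.5-fold. ENSGALG00000000470 had 48.4 FPKM with FOXL2 against 66.0 with control in prehierarchical cells (log2 ratio -0.44) and 21.2 against 18.2 FPKM in preovulatory cells (0.21). ENSGALG00000009971 had 77.4 against 81.5 FPKM in prehierarchical cells (-0.07) and 23.6 against 16.5 FPKM in preovulatory cells (0.49). Both had a narrower phase gap with FOXL2 than with control, and their preovulatory values are among the lower ones of the set.

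**Figure D4:**
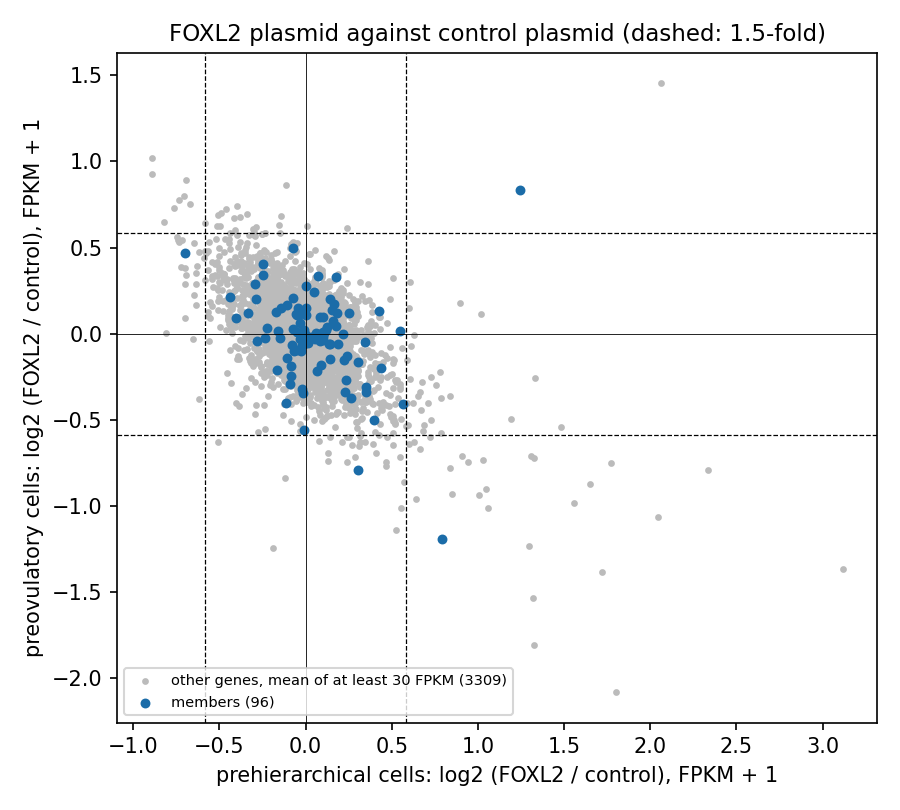
Log2 ratio of FOXL2 over control (FPKM + 1) in prehierarchical cells (x axis) and in preovulatory cells (y axis) for 3405 abundant genes, with the 96 members in blue and dashed lines at 1.5-fold. Most members lie inside the central square, ENSGALG00000023818 is the blue point at the upper right (1.246 and 0.83) and ENSGALG00000012481 the lowest blue point (0.79 and -1.19).

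Across genes the FOXL2 ratios of the 2 phases, which have no library in common, had a Pearson r of -0.26 in the 96 members, against -0.56 in all 3405 abundant genes and -0.66 in the 31 genes left out as more than moderate. Without ENSGALG00000012481 and ENSGALG00000009700, the 2 members whose phase ratios differed most between plasmids, r was -0.09 in the members. That difference is, by arithmetic, the preovulatory minus the prehierarchical FOXL2 ratio. The 2 members were thus picked for opposed FOXL2 ratios, and leaving them out brings a negative r nearer to 0 by construction. The value of -0.09 is a description only. Both -0.26 and -0.09 include ENSGALG00000023818, whose FOXL2 ratios of 1.246 and 0.83 have the same sign and pull r upward. An r without that gene is not given. The distance between -0.26 and -0.56 is thus not read as a trait of the members. No such r is given for all abundant genes or for the 31 genes, so -0.09 has no counterpart there. Among the 31 genes the phase ratio with FOXL2 minus that with control reached -3.13, further from 0 than in any member. Genes are not replicates, so no p is given. Preovulatory control and prehierarchical FOXL2, the libraries with a number in the header name (1 and 2), enter the FOXL2 ratios on opposite sides. A batch, if these unlike numbers mark one, and a plasmid difference that depends on phase cannot be told apart here either. The rule keeps out genes whose phase ratio passes -1 with 1 plasmid only, and what this does to r in the members was not tested.

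The phase ratio was wider with FOXL2 than with control for 58 members and narrower for 38, but this split turns with the scaling: on the TPM scale it was wider with FOXL2 for 39. The median change of the phase ratio, FOXL2 minus control, was -0.05 in the members and -0.02 in all abundant genes. Both phase ratios were used by the rule, which left out, among others, the 106 abundant genes past -1 with 1 plasmid only. In those genes the change had an SD over genes of 0.93, against 0.41 in the members. How far the 2 ratios of a member lie apart is thus partly set by the rule. The 2 ratios differed by under 0.5 for 78 members (81.3%), against 83.8% of abundant genes. Of the rest, 12 were wider with FOXL2 and 6 wider with control. A difference of at least 1 was found for ENSGALG00000012481 (-1.98) and ENSGALG00000011511 (-1.09) on the first side and for ENSGALG00000009700 (1.17) on the other. Shares by direction over all abundant genes are not given. The splits into wider and narrower, at any size, thus cannot be set against a background.

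By level, the spread of the FOXL2 ratios was widest in members of 100 to 300 FPKM, the class that holds ENSGALG00000012481 and ENSGALG00000023818. Their SDs over genes were 0.31 in prehierarchical and 0.32 in preovulatory cells, against 0.23 and 0.25 for all genes of that class. Members of at least 300 FPKM had SDs of 0.15 and 0.17, against 0.23 and 0.23 for their class, a gap that was not tested. Members of 30 to 100 FPKM had SDs of 0.22 and 0.25, against 0.25 and 0.24.

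The mirror set held 95 abundant genes that were moderately higher in the preovulatory phase by the same limits with the sign turned. Its median mean level was close to that of the members, 73.3 against 76.2 FPKM. Its upper quartile was lower, 113.75 against 199.39 FPKM. In prehierarchical cells 6 of the mirror set (6.32%) were at least 1.5-fold higher and 4 (4.21%) lower with FOXL2. Of the members 2 (2.08%) and 1 (1.04%) were, beside 1.70% and 0.852% of all abundant genes. In preovulatory cells 3 of the mirror set (3.16%) were higher and 1 (1.05%) lower. Of the members 1 (1.04%) and 2 (2.08%) were, beside 0.852% and 1.64% of all abundant genes. The SD of the mirror set's FOXL2 ratios was 0.35 in prehierarchical and 0.26 in preovulatory cells, against 0.25 and 0.26 in the members. Whether the sets differ in this was not tested, since each group has 1 library.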

How the data were processed

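Each library has its own table of Ensembl genes, their transcripts and an FPKM value computed by the authors, per the file headers. The submitters' processing notes name Bowtie, RSEM and build galGal4; the sources used here give no version, role or setting for them. RSEM assigns ambiguous fragments by estimation, and for genes with near-identical copies the deposited FPKM does not show that error. Strand use is not stated.

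The 4 tables were joined on the gene identifier, with a missing gene taken as 0. Ratios were log2 of (FPKM + 1), a scale that understates the change of low genes. The member rule was an implementation of the limits given in the text, and it was tested on simulated data. The simulated ratios were planted well away from the limits and with little noise. That test therefore checks the working of the rule and does not bear on genes near a limit. Counts at 1.5-fold and 2-fold were set beside those of all 3405 abundant genes. With 1 library per group no test was made. Members to be named were the 4 with the highest mean, the 2 highest and 2 lowest FOXL2 ratios per phase, the 2 largest and 2 smallest changes of the phase ratio, and the nearest genes at each limit. The rule for named genes, the members and the lists were chosen with earlier results of these data known. The 19 gene lists and the cell type markers drawn up for the study need symbols and were not analysed here. Alternatives were pseudocounts of 0.1 and 5, a TPM scale, equal library medians, genes listed in all 4 tables, and level limits of 10 and 100 FPKM. Python 3.11.15, pandas 2.3.3, numpy 2.4.6 and matplotlib 3.10.9 were used.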

Additional observations from a re-analysis of the deposited data

Results flagged for a closer look

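ENSGALG00000012481 was singled out because its FOXL2 library was at least 1.5-fold above control in prehierarchical cells and at least 1.5-fold below it in preovulatory cells. The prehierarchical minus preovulatory FOXL2 log2 ratio was 1.98. The difference between phases was not tested, since each group has 1 library. A batch, if the numbers in 2 of the header names mark one, cannot be told apart from such a difference. ENSGALG00000012481 was the single named member of that kind.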

How the results depend on the processing

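With 1 library per group none could be left out. No paired analysis was possible because each group has 1 library and the sample labels number no replicates. Whether the numbers in the header names stand for replicates is not stated. Lengths and gene lists were planned but not run, since no file used here gives lengths or symbols. The number of members was 99 and 92 with pseudocounts of 0.1 and 5 (93 and 87 of the 96 among them) and 96 on the TPM scale (91 among them). It moved to 154 with equal library medians (87 among them). Of the 96 members as first chosen, 4 were at least 1.5-fold higher with FOXL2 in prehierarchical cells with equal medians, against 2 as reported. With members chosen again at 10 FPKM there were 201, of which 4 were 1.5-fold higher with FOXL2 in prehierarchical cells, 4 higher and 9 lower in preovulatory cells, and 111 had a wider phase ratio with FOXL2. At 100 FPKM there were 41, of which 0 were lower in prehierarchical and 1 lower in preovulatory cells and 29 had a wider phase ratio, and the median prehierarchical FOXL2 log2 ratio was 0.12. No shares over all genes are given at these limits or with equal medians, so these counts cannot be set against a background. More or fewer genes meet a lower or higher level limit by construction. Equal medians shift each kind of ratio by its own amount, which is the same for every gene. For ENSGALG00000028058 the phase ratio went from -1.28 to -1.47 with control and from -1.34 to -1.62 with FOXL2. Its FOXL2 ratio went from 0.18 to 0.25 in prehierarchical cells and from 0.12 to 0.10 in preovulatory cells. The cause of the other changes was not tested. With genes listed in all 4 tables every value above was that reported, as all members are. Of 256 ratios of the 16 named members under the 4 pseudocounts and scalings, 207 moved by under 0.1. None of the phase ratios of at least 2-fold or FOXL2 ratios of at least 1.5-fold changed sign, but 5 smaller FOXL2 ratios did, 4 on the TPM scale and 1 with equal medians, all of 0.05 or less in size as reported. Of the 49 that moved further, 32 did so with equal medians and 17 with a pseudocount of 5. Total depth is unknown; the lowest member value, 12.5 FPKM, would be about 54.3 fragments at the median step and 33.3 at the upper quartile of the steps.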
